A study of Arabidopsis thaliana with 18 samples.

Results

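Nitrogen supply sets the level of a large part of the seedling transcriptome. The genes described here fell when nitrogen was withdrawn from wild-type Arabidopsis thaliana and stood higher again, still without nitrogen, in seedlings overexpressing either of 2 related transcription factors, LBD37 and LBD38. A probe set, the group of short oligonucleotides that measures 1 transcript on an Affymetrix ATH1 array, was a member when its mean log2 signal in nitrogen-depleted wild type was at least 1 below that in nitrogen-replete wild type, and when its mean in each overexpresser was at least 0.6 above that in depleted wild type. Of 22746 probe sets, 1125 met the first condition. Among these, 144 rose by 0.6 or more in the LBD37 overexpresser (12.8%) and 244 in the LBD38 overexpresser (21.7%). The 128 that did so in both (11.4%) are the members. These 3 differences chose the members, so their values are given as a description with no test.

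Whole Col-0 seedlings aged 9 days were profiled in 6 groups of 3 biological replicates, 18 arrays in total. The nitrogen-depleted groups were wild type, the LBD37 overexpresser and the LBD38 overexpresser, which had 7 days of full nutrition with 4 mM KNO3 and then 2 days with no nitrogen added. The replete groups were wild type, the T-DNA insertion mutant of LBD37 (lbd37-1) and that of LBD38 (lbd38), all kept on full nutrition for the whole time. No overexpresser was profiled with nitrogen and no mutant without it, so each line was seen in 1 nutritional state, and the promoter and number of lines behind each overexpresser are not given in the sources used here. No probe set is listed with LBD37 or LBD38 in the annotation used, so the level of the targeted genes, which would check the labels, was not analysed here.

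LBD proteins are plant-specific DNA-binding proteins of the lateral organ boundaries domain family. LBD37, LBD38 and their close relative LBD39 are known as genes that nitrogen induces and that repress other nitrogen-responsive genes, among them those of anthocyanin synthesis and nitrate assimilation. In a seedling short of nitrogen, growth slows, and chloroplasts, which hold much of the leaf's nitrogen in photosynthetic proteins and ribosomes, are run down. Cell expansion depends on enzymes and expansins that loosen the wall, and the surface of new leaves holds cells of the stomatal and trichome lineages.

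Exactly 1 gene is listed for 68 of the members, several for 5 and none for 55. Names could therefore be given to 68 probe sets only, and of these 29 have a gene symbol. The nuclear ones are spread over all chromosomes, with 10, 12, 10, 10 and 9 on chromosomes 1 to 5. The other 17 are encoded in the plastid genome. They made up 25% of the members with 1 gene, while plastid-encoded genes made up 0.511% of all probe sets with 1 gene. Plastid genes are co-transcribed in long units, so these 17 probe sets are not 17 independent observations.

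Arrays of a group agreed closely, with Pearson correlations of 0.988 to 0.998 across probe sets. Replicate 3 of the LBD37 overexpresser stood apart from the other 17 arrays, with a median log2 signal of 6.88 against 6.96 to 7.06 and an interquartile range of 2.90 against 3.07 to 3.29. Without that array the rule selected 163 probe sets, 122 of them among the 128. The signal summed over 6 measured leaf and stomatal marker genes, of 8 listed, ran from 14794 to 16108 in depleted wild type, 13426 to 19115 in the LBD37 overexpresser, 16187 to 18639 in the LBD38 overexpresser and 22836 to 23469 in replete wild type. The sum over 5 measured root markers, of 9 listed, ran from 4626 to 5768, 4127 to 4649, 4466 to 5019 and 7715 to 8161 in the same order. Both sums were thus lower in every depleted group than in replete wild type. The leaf sum is carried by RCA and LHCB4.1, with mean log2 signals of 13.15 and 12.18 in depleted and 13.50 and 13.02 in replete wild type. The stomatal genes SPCH and FMA add little to it. Of the 6 leaf and stomatal markers, only FMA had a higher mean in depleted wild type (6.43 against 6.19). The root sum is carried by PYK10, with mean log2 signals of 11.33 in depleted and 12.60 in replete wild type. Of the other 4 root markers, AT4G26010, EXPA7 and EXPA18 had higher means in depleted wild type (10.25 against 9.31, 8.07 against 7.56 and 7.65 against 6.91) and AT5G17820 had 9.67 against 9.68. The part of these markers in the results was not tested. One of the leaf markers, SPCH, is itself a member. In whole seedlings, fewer cells of a type and less RNA per cell cannot be told apart.

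The members' median log2 difference was -1.43 for depleted against replete wild type, 0.81 for the LBD37 overexpresser against depleted wild type and 0.92 for the LBD38 overexpresser. Over all 22746 probe sets the same medians were -0.07, 0.01 and 0.01. The arrays of depleted and replete wild type did not overlap for 127 of the members, against 58.3% of all probe sets. Arrays of the LBD37 overexpresser did not overlap with depleted wild type for 117 members (31.5% of all probe sets), and those of the LBD38 overexpresser for 124 (35.5%). By limma with Benjamini-Hochberg adjustment, 26.6% of all probe sets were lower and 23.5% higher in depleted than in replete wild type. Against depleted wild type, 7.21% were higher and 11.3% lower in the LBD37 overexpresser, and 9.26% higher and 8.66% lower in the LBD38 overexpresser. Since the rule fixes these directions for the members, nothing is read from their own counts here.

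**Figure D1:**
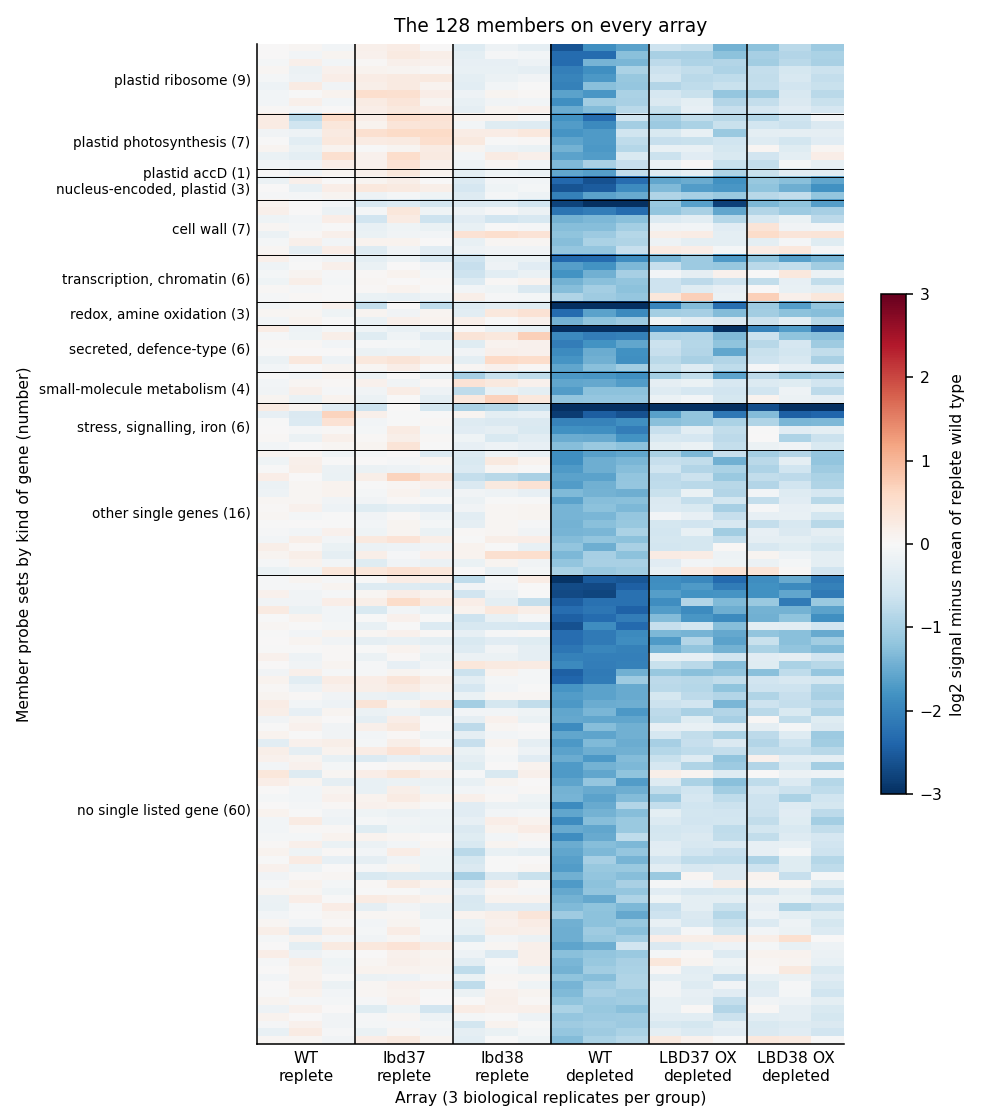
Each row is 1 of the 128 member probe sets, grouped by kind of gene, and each column is 1 of the 18 arrays. Colour gives the log2 signal minus the mean of replete wild type, with blue lower and red higher. The 3 columns of depleted wild type are the darkest blue, both overexpressers are paler, and the mutants lie near replete wild type.

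The return in the overexpressers was partial for most members. Dividing the rise by the size of the fall, both on the log2 scale, the LBD37 overexpresser regained a median of 54.8% of the fall (range 17.3% to 127.8%) and the LBD38 overexpresser 61.0% (22.7% to 141.2%). The rule itself bears on these shares, because a rise of 0.6 is a large share of a fall of 1 and a small one of a fall of 4. The mean in the LBD37 overexpresser reached or passed that of replete wild type for 9 members, and in the LBD38 overexpresser for 8, with 5 members in both. In 30 members both overexpressers regained less than 50% of the fall. The plot of fall against return shows the members that fell furthest below or near the 50% line.

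**Figure D2:**
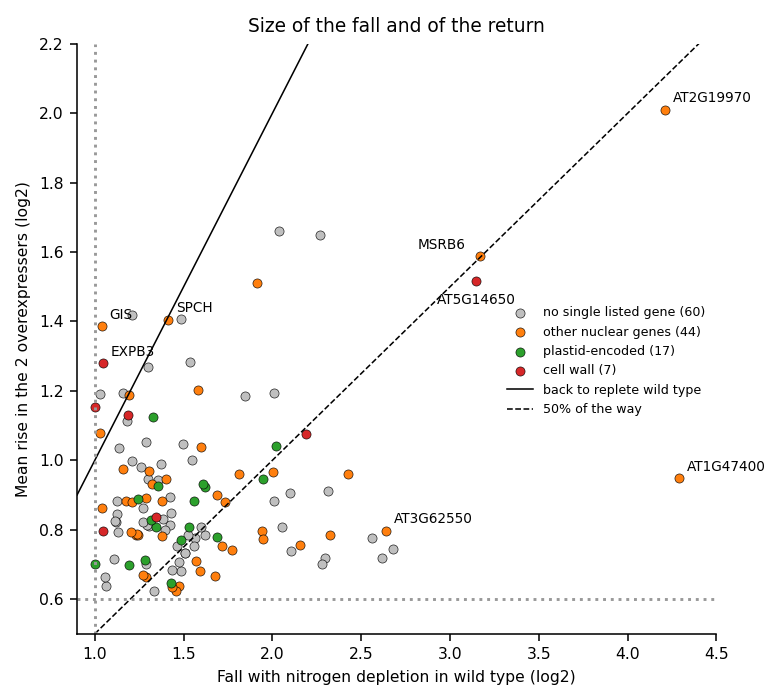
Each point is 1 member. The horizontal axis is the fall with nitrogen depletion in wild type and the vertical axis the mean rise in the 2 overexpressers, both as log2 differences of group means. The solid line marks a full return to replete wild type, the dashed line a return of 50%, and the dotted lines the limits of the rule. EXPB3 and GIS lie above the solid line, SPCH close to it, and AT1G47400 far below the dashed line.

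Genes of the cell wall came back furthest among the groups of members with at least 5 genes, at a median of 76.2% and 76.6% of the fall in the LBD37 and LBD38 overexpressers. Their falls were also smaller, with a median of -1.19. These groups were formed after the members' values had been seen, and the difference between groups was not tested. A list of 14 other expansins and xyloglucan endotransglucosylases had 5 measured genes, and 0 of them were members. With depletion 2 of the 5 rose and 2 fell (limma, adjusted p under 0.05), with a median difference of 0.20. In the LBD37 and LBD38 overexpressers 0 and 1 rose and 0 fell, with medians of -0.16 and -0.12. The rule sets the rise of the members, and 5 measured genes of 14 cannot show what the family at large does. The 7 genes include expansins, which loosen the wall without cutting it, an enzyme that cuts and rejoins xyloglucan, and proteins that act on pectin. EXPB3, a beta-expansin, had log2 signals of 8.52, 8.72 and 8.85 in replete wild type and of 7.50, 7.62 and 7.85 in depleted wild type. Its signals were 8.88, 8.91 and 8.41 in the LBD37 overexpresser and 9.25, 9.05 and 9.09 in the LBD38 overexpresser. The LBD38 overexpresser arrays all lay above every replete wild-type array. Of the LBD37 overexpresser arrays, 2 did so and replicate 3 lay just below the replete range. EXPA15, an alpha-expansin, read 9.39, 9.07 and 9.53 with nitrogen and 8.18, 8.18 and 8.63 without it. In the overexpressers it read 9.59, 9.54 and 9.27, and 9.55, 9.65 and 9.30, so that both sets of arrays overlapped with replete wild type and neither with depleted wild type.

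XTH32, a xyloglucan endotransglucosylase/hydrolase, fell by 1.19 on the log2 scale and rose by 1.01 and 1.25 in the LBD37 and LBD38 overexpressers. EXPB2, a second beta-expansin, fell by 1.35 and rose by 0.82 and 0.86. The pectin-related genes divided by the size of their fall. AT3G53190, of the pectate lyase type, fell by 1.04 and rose by 0.80 in both overexpressers. AT1G23205, of the invertase and pectin methylesterase inhibitor family, fell by 2.19 and rose by 0.95 and 1.20. AT5G14650, of the polygalacturonase type, dropped from 9.54, 9.42 and 9.36 to 6.67, 6.20 and 6.02. It stood at 8.31, 7.82 and 6.63 in the LBD37 overexpresser and at 8.09, 8.23 and 7.79 in the LBD38 overexpresser. Replicate 3 of the LBD37 overexpresser, the array that stands apart, overlapped with depleted wild type there.

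Regulators of transcription and chromatin numbered 6. SPCH, the basic helix-loop-helix factor that starts the stomatal lineage, had log2 signals of 6.98, 7.12 and 6.99 in replete wild type and 5.23, 5.58 and 6.03 in depleted wild type. It stood at 6.95, 6.77 and 7.17 in the LBD37 overexpresser and 7.02, 7.34 and 6.86 in the LBD38 overexpresser. Both overexpressers lay across the replete range, at 95.3% and 103.3% of the fall regained. MUTE and FMA, the factors that act after SPCH in the same lineage, were measured too and are not members. MUTE differed by -0.26 (SE 0.08) with depletion (limma, adjusted p = 0.0089) and by 0.21 and 0.15 in the LBD37 and LBD38 overexpressers (adjusted p = 0.0685 and 0.23). FMA rose by 0.24 with depletion (adjusted p = 0.0179). It rose by a further 0.23 in the LBD37 overexpresser (adjusted p = 0.0485) and differed by 0.16 in the LBD38 overexpresser (adjusted p = 0.195).

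GIS, a zinc finger factor that promotes trichome initiation on inflorescence organs, passed its replete mean in both overexpressers. Its log2 signals were 6.97, 7.05 and 6.99 with nitrogen, 6.10, 5.94 and 5.84 without it, 7.35, 7.72 and 6.80 in the LBD37 overexpresser and 7.71, 7.16 and 7.34 in the LBD38 overexpresser. All 3 LBD38 overexpresser arrays were above all 3 replete wild-type arrays, and 2 of the 3 LBD37 overexpresser arrays were. The remaining regulators came back less far. CIL, a CCT-domain protein, fell by 1.59 and rose by 0.62 and 0.74. The basic helix-loop-helix genes AT5G50915 and AT2G31730 fell by 2.16 and by 1.17, and rose by 0.77 and 0.74 and by 0.76 and 1.00. 3xHMG-box2, an HMG-box chromatin protein associated with mitotic chromosomes, fell by 1.29 and rose by 0.62 and 0.71.

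The 17 plastid-encoded members are 9 ribosomal protein genes (rps2, rps3, rps4, rps19, rpl14, rpl16, rpl22, rpl33 and rpl36), 7 photosynthesis genes and accD, which encodes a subunit of acetyl-CoA carboxylase. Of the photosynthesis genes, psaA encodes a core protein of photosystem I, psbB, psbD and psbT encode proteins of photosystem II, psbN and ycf4 encode factors of photosystem assembly, and atpF encodes a subunit of the ATP synthase. Among them, 8 are next to another member in the annotated order of protein-coding genes. These are the run rpl14, rpl16, rps3, rpl22 and rps19, and the run psbB, psbT and psbN. Members without a single listed gene could not be placed in this order. Some of them may be plastid-encoded, so the count of 17 and the runs cover annotated members only.

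Among ribosomal protein genes, rpl16 fell furthest. Its log2 signals were 10.55, 10.59 and 10.44 in replete wild type, 7.93, 8.69 and 8.91 in depleted wild type, 9.91, 9.82 and 9.12 in the LBD37 overexpresser and 9.30, 9.73 and 9.43 in the LBD38 overexpresser. Every overexpresser array lay between the ranges of the wild-type groups. For rpl22 the depleted wild type read 8.89, 8.89 and 9.95 and the LBD37 overexpresser 10.21, 10.22 and 9.96, so that the highest wild-type array, replicate 3, almost met the lowest overexpresser array. The photosystem I gene psaA read 9.94, 9.64 and 9.96, then 8.43, 8.13 and 9.00 in depleted wild type, 9.62, 9.62 and 9.32 in the LBD37 overexpresser and 9.91, 9.49 and 9.91 in the LBD38 overexpresser. The 9 ribosomal protein genes regained a median of 52.4% and 52.5% of the fall, and the 7 photosynthesis genes 56.4% and 68.5%.

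Depleted wild type was more variable for these genes than any other group. The median SD over the 17 plastid-encoded members was 0.51 in depleted wild type and 0.12 to 0.17 in the other 5 groups. Over the 111 members not assigned to the plastid genome, 60 of them without a single listed gene, it was 0.18 in depleted wild type. Replicate 3 of depleted wild type was the highest of its group for 17 of 17 plastid-encoded members, and the per-array medians were 7.72, 8.13 and 8.62. LBD37 overexpresser arrays overlapped with depleted wild type for 6 of the 17 and LBD38 overexpresser arrays for 4 of the 17. Over all probe sets, 31.5% and 35.5% did not overlap in these comparisons. Without replicate 1 of depleted wild type the rule selected 84 probe sets in all, 6 of them plastid-encoded with 1 listed gene. Without replicate 3 it selected 158, 24 of them plastid-encoded. The share of plastid genes among the members thus depends on single depleted wild-type arrays.

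The array's 25S ribosomal RNA control also differed between these groups. Its mean was higher in depleted than in replete wild type (9.19 against 8.64), where the plastid-encoded members were lower. Its log2 signals were 8.31, 9.69 and 9.58 in depleted wild type, 11.04, 11.19 and 10.40 in the LBD37 overexpresser, 9.33, 10.06 and 9.90 in the LBD38 overexpresser, and 8.42, 8.89 and 8.61 in replete wild type. Its lowest depleted wild-type array, replicate 1, was also the lowest of its group for 10 of the 17 plastid-encoded members. Replicate 2, with the highest 25S signal of that group, was the lowest for the other 7. Replicate 3, with a 25S signal close to that of replicate 2, was the highest for 17 of 17. The part of this control in the plastid result was not tested.

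Plastid-encoded genes outside the members are those that missed a limit of the rule, so that smaller differences among them are set by the choice of members. Of the 69 with a probe set of their own, 63 were lower in depleted wild type by limma, 30 were higher in the LBD37 overexpresser and 51 in the LBD38 overexpresser. These counts include the members. For the 52 others alone, 46 fell with depletion, 16 rose in the LBD37 overexpresser and 34 in the LBD38 overexpresser, with median differences of -0.76, 0.32 and 0.49. The photosystem II gene psbA differed by -0.19, -0.03 and -0.03 in the same comparisons. The Rubisco large subunit gene rbcL differed by -0.93, -0.27 and 0.14. The gene atpH, next to the member atpF, missed the first condition by little, at -0.997.

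**Figure D3:**
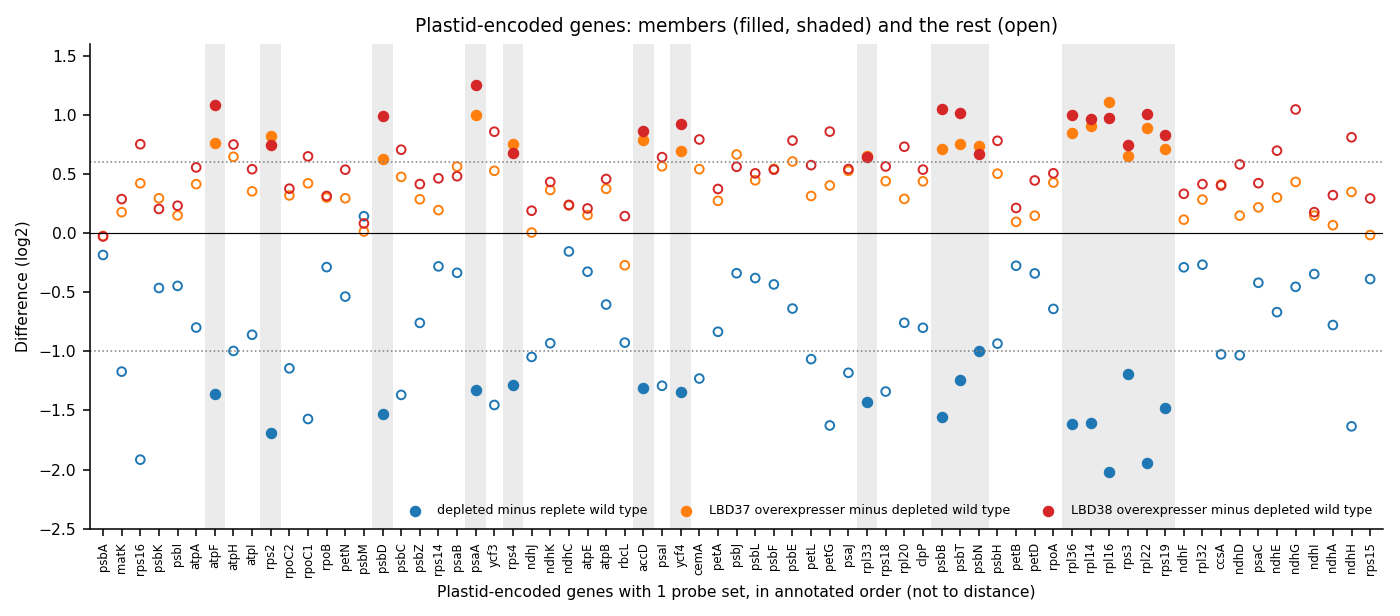
Each position on the horizontal axis is 1 of 69 plastid-encoded genes, in annotated order and not to distance, and the vertical axis is the log2 difference of group means. Blue marks depleted minus replete wild type, orange and red each overexpresser minus depleted wild type. Members are filled and shaded, and dotted lines mark the limits of the rule. The fall and the return extend along most of the plastid genome, with psbA and psbM near 0.

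The 3 nucleus-encoded members grouped by plastid function stayed below replete wild type. AT4G26370, with a NusB-type antitermination domain, fell by 2.33 and rose by 0.74 and 0.83. AT5G55220, a trigger-factor type chaperone, fell by 2.43 and rose by 0.81 and 1.11, and AT1G66430, a pfkB-type sugar kinase, fell by 1.72 and rose by 0.71 and 0.79. None of these 3 regained 50% of its fall in either overexpresser. Their median fall was -2.33, against -1.43 for the plastid-encoded members, and a given rise is a smaller share of a larger fall. Of 20 listed nuclear genes of the photosynthetic apparatus 4 were measured, none of the 4 a member, and 3 of them were lower in depleted wild type (limma, adjusted p under 0.05). In the LBD37 overexpresser 0 of the 4 were called higher or lower, with a median difference of -0.08. In the LBD38 overexpresser 1 rose and 0 fell, with a median of 0.24. The 1 that rose was LHCB4.1, a light-harvesting protein of photosystem II. It fell by 0.85 with depletion and differed by 0.23 and 0.34 in the LBD37 and LBD38 overexpressers (adjusted p = 0.1 and 0.0171).

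The largest absolute rise was that of AT2G19970, a secreted protein of the family of pathogenesis-related protein 1. It fell from 10.12, 9.74 and 9.85 to 5.75, 5.88 and 5.43, and stood at 7.89, 7.92 and 6.86 in the LBD37 overexpresser and at 7.90, 8.23 and 7.38 in the LBD38 overexpresser. These differences amount to an 18.5-fold fall and to rises of 3.65-fold and 4.45-fold. The overexpresser arrays lay clear of both wild-type groups. Other secreted members were AT2G10940 and AT1G62500, of the lipid-transfer protein type, ATLP-1, a thaumatin-like protein, AT3G16530, a legume-type lectin, and AT5G07030, of the aspartyl protease family. They fell by 1.29 to 2.01 and rose by 0.68 to 1.10.

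MSRB6, a methionine sulfoxide reductase that repairs oxidised methionine, fell from 10.09, 10.14 and 10.31 to 7.17, 7.01 and 6.85. It returned to 8.20, 8.87 and 7.92 in the LBD37 overexpresser and to 9.09, 8.52 and 9.00 in the LBD38 overexpresser, between the wild-type groups on every array. Of 9 listed genes of this family, 4 were measured. MSRB5 fell by 0.84 with depletion and rose by 0.45 and 0.40 in the LBD37 and LBD38 overexpressers (adjusted p = 0.0187 and 0.0375). MSRB9 went the other way, rising by 1.79 with depletion and falling by 0.42 and by 0.54 in the overexpressers (adjusted p = 0.0366 and 0.0078). MSRB3 rose by 0.90 with depletion and differed by -0.20 and -0.22 in the overexpressers (adjusted p = 0.169 and 0.161). The neighbouring copper amine oxidase genes AT1G31690 and AT1G31710 fell by 1.23 and by 1.94, and rose by 0.94 and 0.63 and by 0.83 and 0.76.

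AT1G47400 had the largest fall of the members, and the smallest share regained of them in the LBD37 overexpresser. It encodes an IRON MAN peptide, one of the short peptides that signal iron shortage. Its log2 signals were 9.36, 9.19 and 8.77 in replete wild type and 4.79, 4.80 and 4.86 in depleted wild type. The latter lie below the lower quartile of all probe sets in that group (5.20), where a signal can be close to background, so the size of the fall and the shares regained are less certain than for brighter probe sets. In all, 7 of the 128 members had a mean in depleted wild type below that quartile. For AT1G47400 the LBD37 overexpresser read 4.91, 5.92 and 5.84 and the LBD38 overexpresser 6.44, 5.59 and 5.88. Overexpresser arrays were all above depleted wild type, and all far below replete wild type, with 17.3% and 26.9% of the fall regained. BHLH101 and PYE, regulators of the iron deficiency response, fell by 1.17 and by 0.53 with depletion (adjusted p = 2.87e-06 and 0.00307). Their differences in the overexpressers were between -0.11 and 0.03 (lowest adjusted p = 0.682).

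Further stress and signalling members included AT4G21870, a small heat shock protein type chaperone, at 10.04, 9.98 and 10.05 with nitrogen and 8.19, 8.19 and 7.94 without it. It reached 9.33, 9.71 and 9.27 in the LBD37 overexpresser and 10.01, 9.68 and 9.72 in the LBD38 overexpresser, where 1 array lay within the replete range. AT3G62550, of the universal stress protein family, fell by 2.64 and rose by 0.99 and 0.60. In the LBD38 overexpresser it read 8.42, 7.26 and 7.33 against 6.86, 7.24 and 7.11 in depleted wild type, so its place among the members rests largely on replicate 1. Members of small-molecule metabolism were AT1G73600, of the phosphoethanolamine methyltransferase family, UGT73B1, a glucosyltransferase, BGLU47, a beta-glucosidase, and AT3G05600, of the epoxide hydrolase family. They fell by 1.16 to 1.77 and rose by 0.65 to 1.27.

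Some of the fullest returns were seen in probe sets without a listed gene. The probe set 245138_at read 7.89, 8.05 and 7.92 in replete wild type, 6.48, 6.81 and 6.94 in depleted wild type, 8.16, 8.13 and 8.18 in the LBD37 overexpresser and 8.12, 8.43 and 7.96 in the LBD38 overexpresser. All LBD37 overexpresser arrays were above all replete wild-type arrays. The probe sets 258618_at and 254931_at had the largest mean rises among those without a gene, at 1.68 and 1.64 and at 1.43 and 1.87, after falls of 2.04 and of 2.27. The 60 members without a single listed gene regained medians of 58.4% and 60.3%.

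The genes known best for their response to nitrate could be followed only in part. Of 27 listed genes of nitrate uptake, assimilation and their regulation, 6 were measured with a probe set of their own and 0 were members. With depletion 3 of the 6 rose and 3 fell, and 3 fell in each overexpresser (limma, adjusted p under 0.05). Of 15 measured CC-type glutaredoxins, small redox proteins that respond to nitrogen, 11 fell with depletion and 4 rose, and 0 were members. In the LBD37 overexpresser 1 rose and 5 fell, and in the LBD38 overexpresser 2 rose and 4 fell. The cell-cycle kinases AUR1 and AUR2 fell by 1.02 and by 1.51 with depletion and rose in both overexpressers, by 0.43 and 0.45 for LBD37 and by 0.53 and 0.58 for LBD38 (highest adjusted p = 0.0338), below the 0.6 required. All 5 measured genes of the list of jacalin lectins and myrosinase-related proteins fell with depletion, with differences of -3.43 to -0.73, and of these 5 only JAL33 rose in an overexpresser, by 0.44 for LBD38 (adjusted p = 0.0236).

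At the limits of the rule, psbN, EXPA15 and 250891_at were the members with the smallest falls, at -1.0003, -1.0026 and -1.03. Just outside, atpH, AT5G45670 and 254125_at had differences of -0.997, -0.98 and -0.97. For the LBD37 overexpresser the members with the smallest rises, AT2G05540, AT5G45700 and 263913_at, had 0.609, 0.612 and 0.613, and 250413_at, 261196_at and 262172_at missed with 0.599, 0.599 and 0.597. For the LBD38 overexpresser AT3G02640, AT3G62550 and 245576_at entered with 0.6001, 0.601 and 0.607, and 261840_at, AT3G12870 and AT1G33600 missed with 0.585, 0.583 and 0.555.

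The overexpressers were also compared with each other. Both entered the rule with the same threshold against depleted wild type, so a probe set high in only one of them could not be a member, which narrows the differences given here. By limma, 0 of 128 members differed at an adjusted p under 0.05, against 0.0484% of all probe sets, and the lowest adjusted p was 0.249. At an unadjusted p under 0.05, 15 members differed, which is 11.7% of them, against 13.9% of all probe sets. Differences, LBD37 minus LBD38, ran from -0.58 to 0.39, with a median of -0.09 (-0.02 over all probe sets). The LBD38 mean was the higher for 88 members and for 12755 of all 22746 probe sets. A missing call does not show that the lines acted alike. Without replicate 2 of the LBD37 overexpresser, 7 members were called lower in that line.

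**Figure D4:**
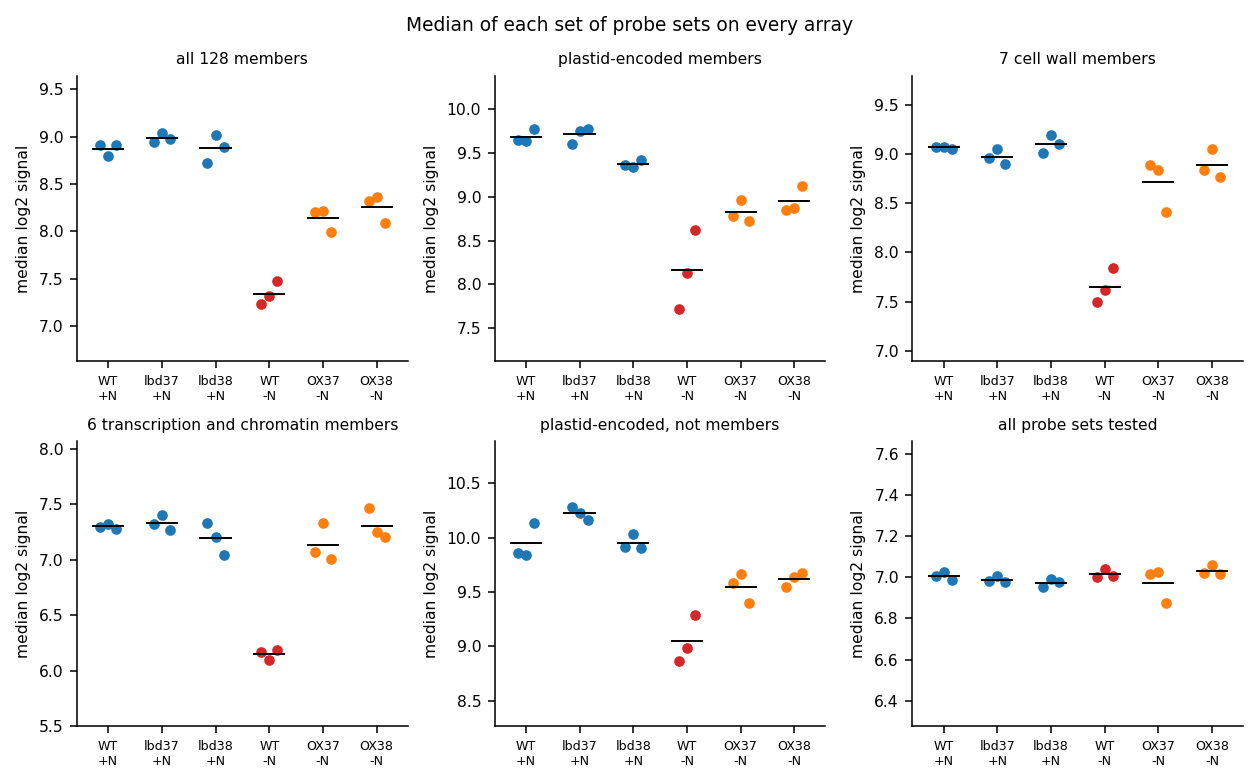
Each point is the median log2 signal of a set of probe sets on 1 array, with a bar at the mean of the 3 arrays of a group. Blue marks the replete groups, red depleted wild type and orange the overexpressers (OX37 for LBD37, OX38 for LBD38), and vertical scales differ between panels. The 17 plastid-encoded members spread from 7.72 to 8.62 in depleted wild type, and the median of all 22746 probe sets stays between 6.88 and 7.06.

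Whether losing LBD37 or LBD38 in replete seedlings lowers the same genes was asked with the mutant arrays, which the rule did not use. The replete wild-type arrays they are compared with did enter the rule. A member had to be high there, which by itself can lower the mutant differences. For the lbd37 mutant, 0 of 128 members were called by limma (0.189% of all probe sets), and the lowest adjusted p was 0.145. At an unadjusted p under 0.05 the count was 9, or 7.03%, against 7.42% of all probe sets. The median difference was 0.02, against -0.02 over all probe sets, with 68 members above 0 and 60 below. Over all probe sets 9437 were above 0 and 13309 below.

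In the lbd38 mutant 3 members were lower and 0 higher (2.34% called, against 1.19% of all probe sets, and 0.598% called lower). The median difference was -0.12, against -0.04 over all probe sets. Below 0 were 98 of 128 members and 14288 of all 22746 probe sets. At an unadjusted p under 0.05 the count was 21, or 16.4%, against 11.7% of all probe sets. AT2G05540, which encodes a glycine-rich protein, read 9.24, 9.05 and 8.86 in replete wild type and 8.33, 8.23 and 8.08 in the lbd38 mutant. That is a difference of -0.84 (SE 0.15, adjusted p = 0.00619). UGT73B1, the glucosyltransferase, read 8.79, 8.73 and 8.90 and then 7.80, 8.15 and 8.04, a difference of -0.81 (SE 0.15, adjusted p = 0.00956). The probe set 249775_at, with no listed gene, read 8.78, 8.47 and 8.38 and then 7.51, 8.01 and 7.80, a difference of -0.77 (SE 0.17, adjusted p = 0.0344). For all 3 the groups did not overlap, which held for 18.5% of all probe sets.

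These calls rest on few arrays. Without replicate 1 of the lbd38 mutant 1 call was left, that of AT2G05540, and UGT73B1 differed by -0.71 with an adjusted p of 0.0675. The call of 249775_at was lost when any of 4 single arrays was left out, with differences of -0.80 to -0.64 and adjusted p of 0.0837 to 0.201. AT1G47400 had a difference as large, -0.83, with values of 8.16, 8.26 and 8.43 in the lbd38 mutant, but its replete wild type ranged from 8.77 to 9.36 and the adjusted p was 0.122. BHLH101, of the same iron list, fell by 0.88 in that mutant (adjusted p = 0.005). It was the only call among the 3 measured genes of that list, so PYE was not called. Of the genes that came back furthest, GIS differed by 0.02, EXPA15 by -0.12, SPCH by -0.38 and EXPB3 by 0.45 in the lbd38 mutant (adjusted p = 0.363 for SPCH and 0.0899 for EXPB3).

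Comparing the mutants with each other involves no array that chose the members. By limma 7 members differed, 4 higher and 3 lower in lbd37 than in lbd38, which is 5.47% called against 2.6% of all probe sets (1.5% higher and 1.1% lower). The median difference was 0.14, against 0.01 over all probe sets. Above 0 were 92 members and 12486 of all 22746 probe sets. At an unadjusted p under 0.05 the count was 35, or 27.3%, against 12.7% of all probe sets.

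The largest difference was that of AT2G05540, with 9.22, 9.72 and 9.40 in lbd37 and 8.33, 8.23 and 8.08 in lbd38, 2.36-fold higher in lbd37 (log2 1.24, SE 0.15, adjusted p = 0.000109). The probe set 249775_at read 8.93, 8.62 and 8.81 against 7.51, 8.01 and 7.80 (log2 1.01, adjusted p = 0.00279). UGT73B1 was higher in lbd37 by 0.67 (adjusted p = 0.0187) and 260982_at, with no listed gene, by 0.41 (adjusted p = 0.0371). In these 4 the lbd38 mutant had the lower mean against replete wild type. The other 3 were higher in lbd38. AT3G16530, the legume-type lectin, read 10.02, 10.26 and 10.05 in lbd37 and 10.77, 10.71 and 11.11 in lbd38 (log2 -0.75, adjusted p = 0.0096). EXPB3 read 8.50, 8.60 and 8.61 against 9.14, 9.19 and 9.10 (log2 -0.57, adjusted p = 0.0137), and BGLU47 5.88, 6.07 and 5.76 against 6.38, 6.75 and 6.38 (log2 -0.60, adjusted p = 0.0173). The mutants' arrays did not overlap for any of the 7, as for 24.3% of all probe sets, but the 7 were picked by the test of the same difference. Several of these calls rest on single arrays. Without lbd37 replicate 1 there were 2 calls in place of 7. The call of 260982_at was lost in 5 of 6 fits without 1 mutant array (differences of 0.35 to 0.45, adjusted p up to 0.197) and under both other scalings of the arrays (adjusted p = 0.0746 and 0.0539). UGT73B1 lost its call in 4 of the 6 fits, BGLU47 and EXPB3 in 3 each and AT3G16530 in 2, and AT2G05540 and 249775_at kept theirs in all 6.

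EXPB3 was thus higher in the lbd38 mutant than in the lbd37 mutant, and its signals in lbd38 were also above all replete wild-type arrays, by 0.45 in the mean, without passing the threshold (adjusted p = 0.0899). By limma the cell wall members gave 0 calls against replete wild type in either mutant, and 0 in lbd37 and 2 in lbd38 had an unadjusted p under 0.05. Over all probe sets 0.189% and 1.19% were called and 7.42% and 11.7% had such a p. EXPB2 and AT5G14650 had differences of -0.32 and -0.47 in lbd37 and of -0.47 and -0.48 in lbd38, none past the threshold.

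No plastid-encoded member was called in either mutant or between them. In lbd37 the difference from replete wild type was above 0 for 17 of 17, where 9437 of all 22746 probe sets were above 0. The same held for 48 of the 52 plastid-encoded genes outside the members. Over the 17 the median difference was 0.24, with a lowest adjusted p of 0.626 (2 had an unadjusted p under 0.05). In lbd38 it was below 0 for 13 of 17, where 14288 of all 22746 probe sets were below 0, with a median of -0.13 and a lowest adjusted p of 0.674 (0 had an unadjusted p under 0.05). All 9 ribosomal protein genes were below 0 there, with a median of -0.14, and the 7 photosynthesis genes were divided, 4 above and 3 below, with a median of 0.06. Between the mutants, lbd37 minus lbd38, the difference ran from 0.21 to 0.57, with a median of 0.33. It was above 0 for 17 of 17, where 12486 of all 22746 probe sets were above 0. The arrays did not overlap for 14 of the 17, against 29 of the 52 plastid-encoded genes outside the members and 24.3% of all probe sets. The lowest adjusted p was 0.145, so 0 of the 17 passed, and 3 had an unadjusted p under 0.05.

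The comparison of the mutants was similar over all plastid-encoded genes. Of the 69 measured, 65 had a higher mean in lbd37 than in lbd38, as did 12486 of all 22746 probe sets. The threshold was passed by 4 of the 69. The 4 are not members, and they were singled out after their values were seen. They are ycf3, a photosystem I assembly factor, with a difference of 0.77 (adjusted p = 0.00192), the ribosomal protein genes rpl20 with 0.78 (adjusted p = 0.00523) and rps16 with 0.62 (adjusted p = 0.037), and petN, of the cytochrome b6f complex, with 0.44 (adjusted p = 0.0113). The 25S ribosomal RNA control read 8.64, 8.09 and 8.01 in lbd37 and 7.79, 8.29 and 8.19 in lbd38, with overlap between the mutants.

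**Figure D5:**
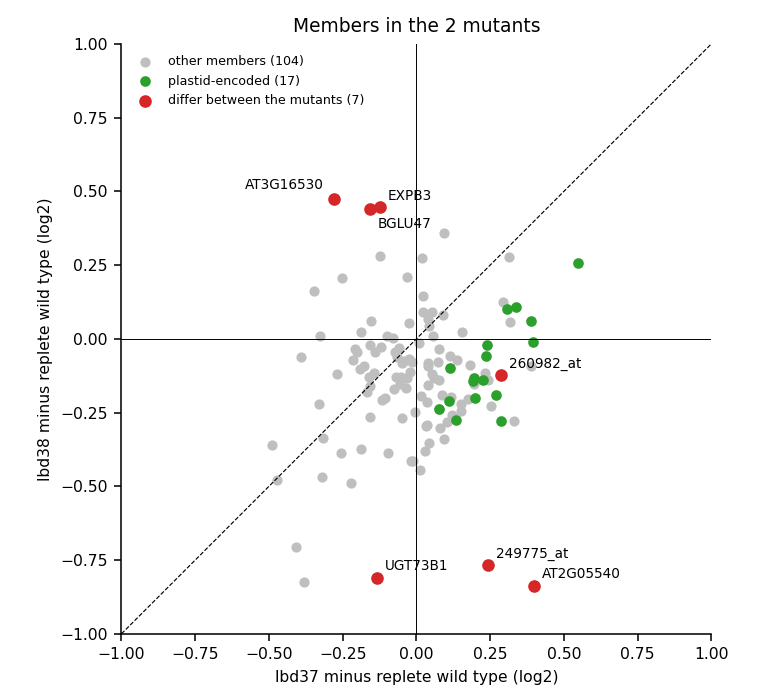
Each point is 1 member, with its log2 difference from replete wild type in the lbd37 mutant on the horizontal axis and in the lbd38 mutant on the vertical axis. The dashed line marks equal differences, and both axes share the replete wild-type arrays. Red points are the 7 members that differ between the mutants at an adjusted p under 0.05, and green points are the 17 plastid-encoded members, all to the right of 0.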

How the data were processed

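Total RNA of whole seedlings was hybridised to 18 Affymetrix ATH1 arrays. The deposited table gives a log2 signal for each probe set on each array, obtained with RMA by the authors per the submitters' processing notes. RMA corrects the background of each array and brings all arrays to 1 distribution, so a shift common to most genes would not be seen. The array images were not used here, and the RMA version and a genome build are not given in the sources used here. Growth is described in the labels both as liquid culture and as agar followed by liquid wells.

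The 64 control probe sets were left out of the tests. Genes came from the platform's probe table, matched to names of the TAIR10.1 assembly. It lists 1 gene for 13513 probe sets, several for 503 and none for 8730, and 13484 of the first matched. Where it lists several or none, the identifier stands in the text. The tables hold symbols but no functions, so families of loci without a symbol are general background knowledge.

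All differences were fitted with limma 3.58.1 in R 4.3.3 on 18 arrays with 6 group means (12 residual degrees of freedom, prior 5.89), with two-sided tests and Benjamini-Hochberg adjustment over 22746 probe sets within each comparison at a threshold of 0.05. The number of arrays limits the precision, and p-values measure only the spread between the replicates. Array values are log2 units, and standard errors pool all groups. The fit and the selection rule were tested on simulated data with known shifts.

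The members and the 16 gene lists were chosen with earlier results of these data known. Genes are named where they are members with 1 gene that were called, rose or fell most, came back furthest or least, lie on a list, have a symbol or sit at a limit of the rule, with up to 4 members without a single gene for each such ranking. Other genes were named from the lists or where singled out in the text. Alternatives were another scaling, array weights, other thresholds, a replicate block and fits of only the groups compared. Leaving out the dimmest 40% of probe sets and leaving out each array were further ones. Same-numbered replicates of groups in the same nutritional state correlated from -0.204 to 0.256 after group means were removed. The numbers were therefore not treated as pairs, though weak correlations cannot show whether replicates were grown or harvested together. A search of promoters for 7 motifs was not run, as sequences were not analysed here.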

Additional observations from a re-analysis of the deposited data

Results flagged for a closer look

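A test of the difference between the lbd37 and lbd38 mutants in replete seedlings (limma, adjusted p under 0.05 over 22746 probe sets) singled out 7 of the 128 members. That is 5.47% of them, against 2.6% of all probe sets. Without single arrays the count was 2 to 5, and only AT2G05540 and 249775_at were called in every such fit. As log2 differences, lbd37 minus lbd38, these are AT2G05540 at 1.24, 249775_at at 1.01, UGT73B1 at 0.67 and 260982_at at 0.41, which are higher in lbd37. AT3G16530 at -0.75, BGLU47 at -0.60 and EXPB3 at -0.57 are higher in lbd38. AT2G05540, 249775_at and UGT73B1 were also lower in lbd38 than in wild type, and none of the 7 passed the threshold in lbd37 against wild type.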

How the results depend on the processing

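With the spread estimated from only the groups compared, 1 member was lower in lbd37 and 7 were lower in lbd38 than in wild type, and 28 differed between the mutants (20 higher, 8 lower in lbd37). Array weights gave 18 for that comparison (10 higher, 8 lower), and an adjusted p under 0.01 gave 3. The share of all probe sets called was not counted for these settings or for those that follow. Whether the members' counts changed more than that share is therefore not known. Leaving out single arrays, the calls ranged from 0 to 0 for lbd37, from 1 to 3 for lbd38, from 2 to 5 between the mutants (2 without lbd37 replicate 1) and from 0 to 7 between the overexpressers (7 without LBD37 overexpresser replicate 2). The members' median difference ranged from -0.0439 to 0.0324, from -0.1603 to -0.0471, from 0.0595 to 0.1742 and from -0.1511 to -0.0076 in the same order. The number of members ranged from 84 to 163. A required rise of at least 0.8 left 55 members, 5 of them plastid-encoded. Repeated quantile scaling gave 138 members, 118 of them shared, and centring each array 137, with 123 shared. With the replicate number as a block the calls were 0, 3, 7 and 0, as without it. With the dimmest 40% of probe sets left out, 121 members were tested and the calls were 0, 3, 6 and 0. For the named members, 66 alternative values kept their side of the threshold, 24 lost the call and 0 changed sign. The causes were not tested, apart from the lower number of arrays when 1 is left out. A planned promoter motif search was not run.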
